A study of Arabidopsis lyrata subsp. lyrata and Arabidopsis thaliana with 7 samples.

Results

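A set of 127 gene models of *A. lyrata* held 50 or more reads in rosette replicate 1 and 3 or fewer in rosette replicate 2, out of 32793 models in the count table. They are called members here. Both rosette libraries chose them, so their levels in these libraries are given as a description and were not tested. The members listed with an *A. thaliana* ortholog included 5 of 9 models in a list of the anthocyanin pathway. They also held 5 of 13 models for the endoplasmic reticulum (ER) bodies and 5 of 15 for xylem and the secondary wall. Peroxidases and the lipid-transfer family had 7 members each (6.86% of those with an ortholog). Among orthologs of other models with 50 or more reads in rosette replicate 1, they made up 0.240% and 0.130%. All of these classes except the anthocyanin list were chosen after the values were seen. PRX52 counts both as a xylem gene and as a peroxidase. In the other *A. lyrata* libraries, 121 members (95.3%) had 5 or more reads in the shoot apex and 107 and 110 (84.3% and 86.6%) in the inflorescences, less often than the 17033 other models with 50 or more reads in rosette replicate 1 (99.7%, 99.6% and 99.7%).

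The study sequenced poly-A RNA of *A. lyrata* subsp. *lyrata* MN47, a perennial relative of *A. thaliana*, to improve its gene annotation. The libraries used here are 2 of whole vegetative rosettes, 1 of dissected shoot apices (roots, hypocotyl, cotyledons and leaves removed) and 2 of whole inflorescences from the main stem of flowering plants. A further 2 libraries come from whole rosettes of *A. thaliana*, accession Col-0. Plants of both species grew in soil with 16 h of light and 8 h of dark at 21 °C by the labels, with a cooler dark period for *A. lyrata* by the study's methods, without a treatment, and rosettes and apices were taken at the stage of 5 leaves, at about 3 weeks. No mutant, transgene or stress is part of these groups. The labels give neither the time of day of the harvest nor whether replicates came from separate plants, so any p measures the spread between these libraries only.

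Anthocyanins are red and purple pigments made from flavonoids by reductases, dioxygenases and sugar-adding enzymes, and they colour young leaves and stems of Brassicaceae. ER bodies are swellings of the endoplasmic reticulum in this family that store beta-glucosidases, which cut defence glucosides when a cell is crushed. Lipid-transfer proteins, cutinases and peroxidases are secreted and act in the cuticle and the cell wall, and several families among them are known to respond to light, wounding or hormones.

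Of the 17160 models with 50 or more reads in rosette replicate 1, the members made up 0.740%. In replicate 1 their counts ranged from 50 to 835 with a median of 95, which is 6.58 CPM (counts of a model per 1000000 reads counted in its library). In replicate 2, 48 members had no read, 30 had 1, 20 had 2 and 29 had 3. A floor of 3 reads stands for 0.208 CPM in replicate 1 and 0.225 CPM in replicate 2, so the libraries hardly differed in depth. The floors and the intervals of shares given below take in no more than counting error. The rule fixed every rosette ratio of a member as high, so these ratios carry no interval.

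**Figure D1:**
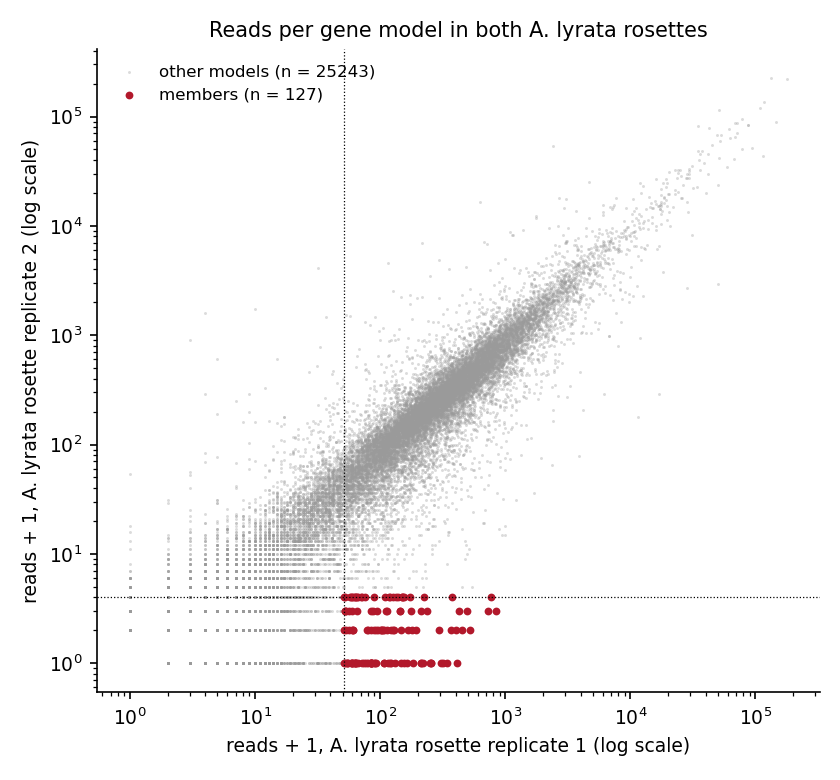
Reads plus 1 in *A. lyrata* rosette replicate 1 (horizontal, log scale) against replicate 2 (vertical, log scale), 1 point per gene model with a read in either library. The dotted lines mark the thresholds of 50 and 3 reads, and the 127 members (red) fill the lower right corner that these lines define.

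The same thresholds in the opposite direction found 8 models, and in the inflorescence pair 2 models and 5 models. Hence the number of members was larger than the number of such models in any other direction or pair. In the *A. thaliana* rosettes, 5 genes were high in replicate 1 alone and 36 in replicate 2 alone. The values just inside the upper threshold belonged to TTG2 (50 and 0 reads), ATPMEPCRD (50 and 1) and ABCF2 (50 and 3). Just outside it were AT1G78260 (49 and 3), AT2G38380 (49 and 0) and ATCSLB05 (49 and 0). At the lower threshold, BFN1 (62 and 3), ILL5 (152 and 3) and TED7 (69 and 3) lay inside, and DR4 (447 and 4), ASPGB1 (50 and 4) and CYP707A4 (90 and 4) outside. There were 31 models with 40 to 49 reads in replicate 1 and at most 3 in replicate 2, so the edge of the set is not a gap in the data.

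The rosettes also differed in genes that are no members. Among morning genes of the circadian clock, CCA1 had 663 and 18 reads, LHY 447 and 16 and PRR9 944 and 14 in replicates 1 and 2. Evening genes went the other way, with 114 and 4541 reads for TOC1, 3 and 1603 for FKF1 and 14 and 611 for LUX. Photosynthesis genes summed to 38724 and 43872 CPM in the rosettes, and all 14 floral organ identity genes were detected in both inflorescences. In the shoot apex STM had 588 reads (55.7 CPM) and KNAT1 936 (88.7 CPM). Both were also read in the inflorescences, STM at 42.8 and 46.3 CPM and KNAT1 at 56.3 and 57.4 CPM. WUS had 2 reads in the apex and 194 and 265 in the inflorescences, and CLV3 had 3 in the apex. The list of 11 meristem and boundary genes summed to 300 CPM in the apex and 165 and 177 CPM in the inflorescences. STM and KNAT1 thus do not mark the apex alone. Of 11 genes of the shoot meristem and its boundaries, 9 had 5 or more reads in rosette replicate 1 and 4 in replicate 2. Their summed levels were 68.0 and 41.6 CPM, of which CLV1 held 58.6 and 38. KNAT1 had 46 and 0 reads in the rosettes, STM 10 and 0, and CUC2 7 and 10. Genes of the jasmonate and ethylene response summed to 10785 and 3745 CPM, of which VSP1 held 7972 and 3300. All 10 models of that list were higher in replicate 1. Root genes summed to 56.8 and 40.4 CPM, mostly from SCR (44.5 and 32.8) and SHR (10.5 and 7.42). Seed genes summed to 2.01 and 0.150 CPM, with OLEO2 at 1.73 and 0.075. Of all 21869 models with 10 or more reads over both rosettes, 61.9% were higher in replicate 1 and 6.12% were over 4-fold higher. The part of any of these in the members' pattern was not tested, and in whole tissue fewer cells of a type cannot be told apart from less RNA per cell.

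The late anthocyanin genes formed the most complete pathway among the members, with 5 of the 9 anthocyanin genes that had a model. DFR, the reductase that commits flavonoids to anthocyanins, had 253 reads in rosette replicate 1 and 0 in replicate 2, 290 in the apex and 396 and 289 in the inflorescences. Its level in replicate 1 was 77.9-fold above the floor of 3 reads in replicate 2. LDOX, the dioxygenase that follows it, had 399 and 1 rosette reads, 589 in the apex and 704 and 460 in the inflorescences. Its rosette ratio of 369 is high by the rule and rests on 1 read in replicate 2. The glutathione transferase GSTF12 (TT19), which carries the pigment to the vacuole, had 165 and 1 rosette reads, 165 in the apex and 550 and 419 in the inflorescences. The sugar-adding enzymes UF3GT and AT4G14090 (UGT75C1) had 63 and 0 and 149 and 3 rosette reads, and both were read in all 3 other libraries.

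The 4 other anthocyanin genes did not reach the thresholds. TT8, the bHLH regulator of DFR, had 48 and 3 reads, the hydroxylase TT7 27 and 5, and the acyltransferase 5MAT 18 and 0. PAP1, a MYB activator of the pathway, stood apart from them with 182 and 126 reads, while MYB113, a related activator from another list, had 43 and 1. The early steps of flavonoid synthesis were read in both rosettes, as CHS had 1918 and 439 reads, CHI 625 and 461, F3H 1016 and 245 and FLS1 904 and 569. None of these 4 is a member. This list of early genes was chosen after the values were seen. Between shoot apex and inflorescence, LDOX and DFR were called lower in the inflorescences, with log2 changes of -1.19 (SE 0.24, adjusted p = 0.014) and -0.93 (SE 0.20, adjusted p = 0.018), and the other 3 members of the pathway were not called.

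ER body genes held 5 of 13 models as members, a list chosen after the values were seen. PYK10, the main beta-glucosidase of these bodies, had 365 reads in rosette replicate 1 and 1 in replicate 2, 454 in the apex and 9 and 5 in the inflorescences. Its rosette ratio of 337 is high by the rule and rests on 1 read in replicate 2. NAI2, a protein that ER bodies need in order to form, had 305 and 0 rosette reads, 526 in the apex and 18 and 27 in the inflorescences. PBP1, a jacalin-like lectin that binds PYK10, had 521 and 1 reads, 653 in the apex and 433 and 228 in the inflorescences. JAL22, a further lectin of this family, had 103 and 1 reads, 294 in the apex and 76 and 17 in the inflorescences. BGLU22, a beta-glucosidase close to PYK10, had 88 reads in rosette replicate 1 and none in any other *A. lyrata* library.

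So PYK10, NAI2, PBP1 and JAL22 had their highest CPM in the shoot apex, and the fifth was seen in rosette replicate 1 alone. All 4 that could be tested were called lower in the inflorescences, beside 50.8% of all members and 20.2% of all models tested. PYK10 was lower by a log2 change of -7.16 (SE 0.25, adjusted p = 0.000148) and NAI2 by -5.70 (SE 0.23, adjusted p = 0.000162). The other genes of the list were higher in rosette replicate 1 too. So were 61.9% of all models with 10 or more reads over both rosettes. JAL23, a lectin coded beside JAL22, had 16996 and 290 reads, TSA1, a relative of NAI2, had 11350 and 2843, and NAI1, the bHLH regulator of ER bodies, had 127 and 6. JAL23 and JAL22 are neighbouring copies, and the rule by which the authors counted reads shared between copies is not given in the sources used here, so the split between such genes is uncertain.

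Xylem and secondary wall genes, again a list made with the values known, held 5 members among 15 models. TED6, a membrane protein of developing vessel elements, had 144 and 2 rosette reads, 299 in the apex and 63 and 38 in the inflorescences. Its relative TED7 had 69 and 3 reads, 216 in the apex and 16 and 11 in the inflorescences. LAC11, a laccase that polymerises lignin, had 171 and 3 reads, 445 in the apex and 181 and 137 in the inflorescences. These 3 were highest in the apex and were called lower in the inflorescences, by log2 changes of -3.73 (SE 0.28, adjusted p = 0.000823), -5.15 (SE 0.29, adjusted p = 0.000341) and -2.65 (SE 0.18, adjusted p = 0.000595).

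PRX52, a peroxidase of lignification, had 125 and 1 rosette reads, 211 in the apex and 316 and 104 in the inflorescences, and was not called. The nuclease BFN1, known from dying xylem and senescing leaves, had 62 and 3 rosette reads, 87 in the apex and 2050 and 1546 in the inflorescences, a log2 change of 3.20 (SE 0.23, adjusted p = 0.000725). The cellulose synthases of the secondary wall were read in both rosettes, with 216 and 54 reads for CESA4, 173 and 31 for CESA7 and 233 and 30 for CESA8. All 15 models of the list had a higher CPM in rosette replicate 1, with a median ratio of 7.07 when 0.5 read is added to each count. The rule fixed this direction for the 5 members. Of all models with 10 or more reads over both rosettes, 61.9% were higher in replicate 1.

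**Figure D2:**
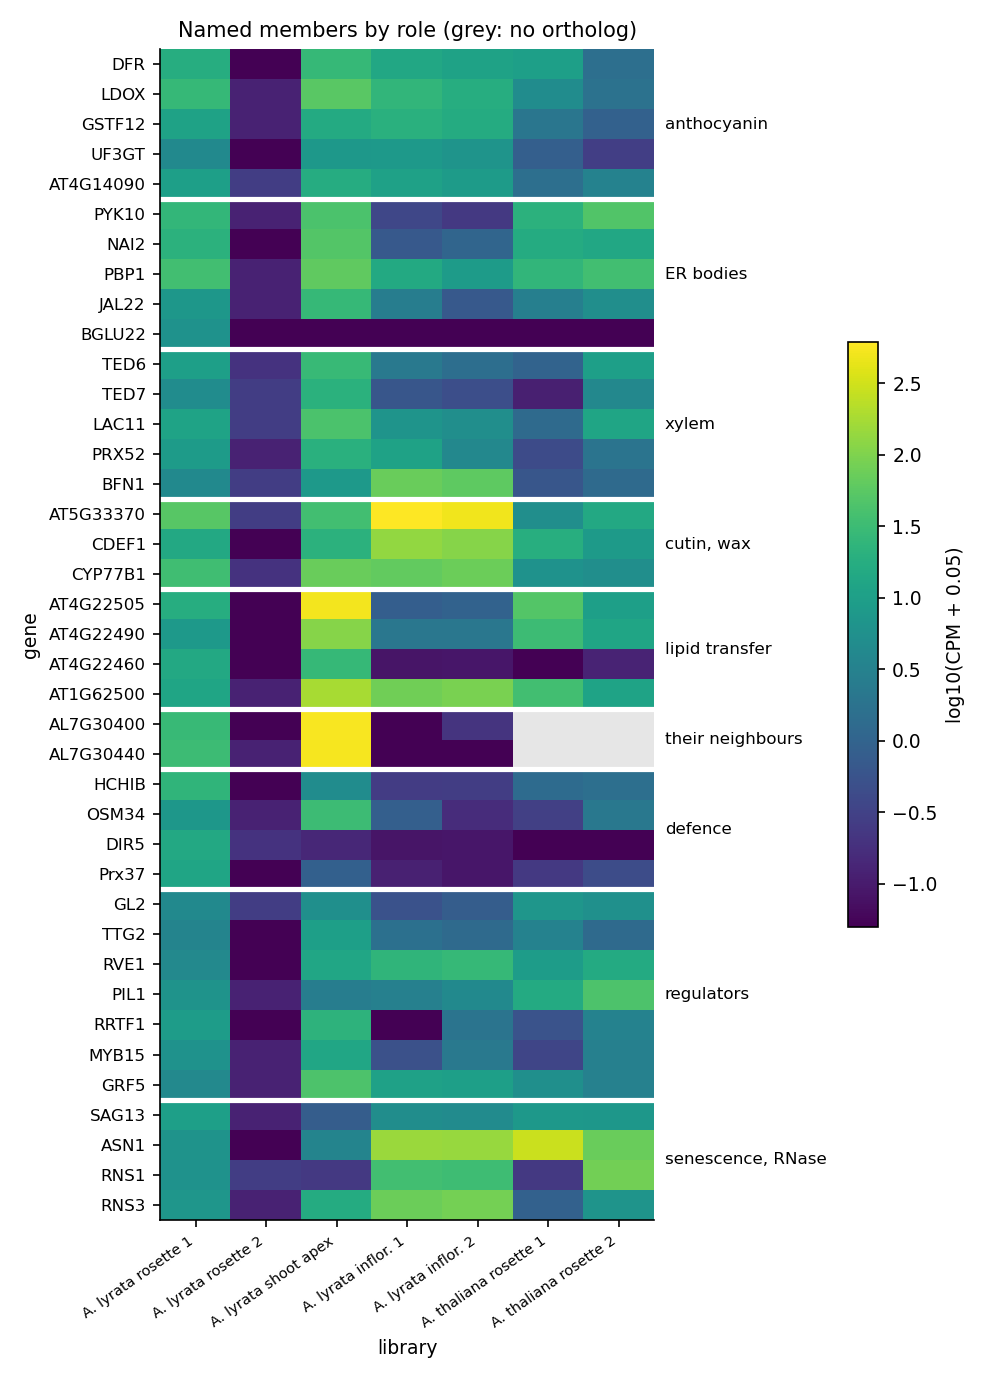
Levels of the members named by role in all 7 libraries as log10 of CPM plus 0.05 (colour), grouped by the role of the ortholog and the scaffold 7 neighbours without one, with grey where no ortholog is listed. The column of *A. lyrata* rosette replicate 2 is dark throughout by the choice of members, while the shoot apex and inflorescence columns differ between groups.

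The cuticle was represented by enzymes that were among the most abundant members. AT5G33370, a GDSL lipase known as a cutin synthase in *A. thaliana* flowers, had 768 and 3 rosette reads, 369 in the apex and 17392 and 13116 in the inflorescences. CDEF1, a cutinase, had 209 and 0 rosette reads, 227 in the apex and 3735 and 2894 in the inflorescences. CYP77B1, a relative of the cutin hydroxylase CYP77A6, had 496 and 2 reads, 759 in the apex and 1824 and 1898 in the inflorescences. AT5G33370 went from 35 CPM in the apex to 614 and 504 CPM in the inflorescences and was called higher there (adjusted p = 0.000525). CDEF1 was called higher in the inflorescences as well, with a log2 change of 2.70 (SE 0.20, adjusted p = 0.000834), whereas CYP77B1 was not called, at 0.13 (SE 0.12, adjusted p = 0.434). CDEF1 and CYP77B1 are 2 of 7 genes in a cutin list made with the values known. Among the other genes of this list, DCR had 1935 and 75 rosette reads and GPAT6 193 and 54.

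A run of 5 members lay within 26241 bp on scaffold 7 of the *A. lyrata* assembly (8616161 to 8642401). They are models of 1 exon each, from 455 to 693 bp long. Together they had 1436 reads in rosette replicate 1, 1 in replicate 2, 18396 in the apex and 81 and 82 in the inflorescences. The orthologs AT4G22505, AT4G22490 and AT4G22460 are annotated in the lipid-transfer and seed storage inhibitor family, and AL7G30400 and AL7G30440 have no listed ortholog. AL7G30440 had 451 and 1 rosette reads, 5631 in the apex and 0 and 0 in the inflorescences. Its apex level was 4220-fold above the floor of the inflorescences. AL7G30400 had 409 and 0 reads, 5863 in the apex and 0 and 4 in the inflorescences. AT4G22505 had 252 and 0 reads, 5422 in the apex and 22 and 24 in the inflorescences.

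Per kilobase of exon, the apex levels in this run went from 40.1 CPM for AT4G22460 and 177 for AT4G22490 to 750 for AT4G22505, 836 for AL7G30400 and 1172 for AL7G30440. All 5 were called lower in the inflorescences, beside 50.8% of all members and 20.2% of all models tested. The model between AL7G30400 and AT4G22505, ortholog of AT4G22517, had 1 and 0 rosette reads and 5 in the apex, and AL7G30450 had 32 and 1 rosette reads and 25 in the apex. The high levels were thus not shared by every model of the stretch. Reads may be divided unevenly among copies of 1 family.

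The 7 members of the lipid-transfer family by their ortholog's product made up 6.86% of the 102 members with an ortholog, beside 0.130% of the orthologs of the other models with 50 or more reads in replicate 1. This class was chosen after the values were seen, and AT4G22505, AT4G22490 and AT4G22460 are neighbours in the scaffold 7 run. A broader class not chosen that way, lipases and lipid-transfer proteins, made up 9.8% and 0.774%. Its 10 members include all 7 of the family, so it largely repeats them. Beside 20.2% of models and 50.8% of members tested, all 7 of the family were called lower in the inflorescences once library depth was scaled. Among them was AT1G62500, with 180 and 1 rosette reads, 1858 in the apex and 2294 and 2376 in the inflorescences (log2 change -0.84, SE 0.13, adjusted p = 0.00663). LTP4, a lipid-transfer protein with another product name, had 76 and 0 reads, 161 in the apex and 1412 and 771 in the inflorescences, and was called higher there (log2 change 1.59, SE 0.39, adjusted p = 0.0268). A pair of neighbours on scaffold 6, AT4G12500 of this family and AL6G46260 without an ortholog, had 139 and 3 and 175 and 2 rosette reads but 22 and 21 in the apex and at most 2 in either inflorescence.

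Peroxidases of the secreted class, also chosen after the values were seen, accounted for 7 members. That is 6.86% of those with an ortholog against 0.240% in the others. Prx37 and AT4G08780 are neighbours on scaffold 6. Prx37 had 182 and 0 rosette reads, 9 in the apex and 2 and 1 in the inflorescences, while AT4G08780 had 113 and 1 reads, 149 in the apex and 15 and 15 in the inflorescences. AT2G38390 had 163 and 0 reads, 156 in the apex and 0 and 1 in the inflorescences, and its neighbour AT2G38380 missed the threshold with 49 and 0. AT4G36430 (83 and 0 reads), AT5G58390 (83 and 0), AT2G18150 (75 and 3) and PRX52 complete the family. By CPM, 6 of the 7 were highest in the shoot apex and Prx37 in rosette replicate 1. In the test 4 were called lower in the inflorescences, 2 were not called and Prx37 was not tested. Of all members tested 50.8% were called lower, and of all models 20.2%.

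The lists of salicylic acid, jasmonate and ethylene, camalexin and immune receptor genes held no member. Single members with another known link to defence, named after their values were seen, include HCHIB, OSM34 and DIR5. HCHIB, a basic chitinase, had 343 and 0 rosette reads, 51 in the apex and 6 and 6 in the inflorescences. OSM34, an osmotin-like protein, had 106 and 1 reads, 332 in the apex and 23 and 3 in the inflorescences. DIR5, of the dirigent family that guides the coupling of phenolic radicals, had 210 and 2 rosette reads and 1 in each of the 3 other libraries. Hence DIR5 and BGLU22 were the members with 3 or fewer reads in the apex and in both inflorescences. AT2G25150, an acyltransferase, and CYP82F1, a cytochrome P450, had 155 and 0 and 59 and 0 rosette reads, 298 and 106 in the apex and at most 18 in either inflorescence. JRG21, an oxygenase induced by jasmonate, had 51 and 0 reads, 15 in the apex and 158 and 139 in the inflorescences. LOX2, an enzyme of jasmonate synthesis and no member, had 28444 and 2708 reads.

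A class of 12 members whose ortholog is a transcription factor was put together after the values were seen. Of these, 8 were called lower and 2 higher in the inflorescences, beside 20.2% and 27.4% of all models tested. By words in the product name alone, 7 members (6.86% of those with an ortholog) were transcription factors, near the 5.47% of the other models. RVE1, a MYB-like factor that is high at dawn in *A. thaliana*, had 59 and 0 rosette reads, 137 in the apex and 679 and 714 in the inflorescences (log2 change 1.18, SE 0.15, adjusted p = 0.00365). Its relative ASG4 had 79 and 1 reads, 60 in the apex and 269 and 271 in the inflorescences. PIL1, a bHLH factor induced by shade, had 91 and 1 reads, 28 in the apex and 83 and 113 in the inflorescences. RVE1 was the 1 member among the 6 morning clock genes, all of which had a higher CPM in rosette replicate 1. That direction held for 61.9% of all models with 10 or more reads over both rosettes. CCA1 and LHY, which differed in the same direction between the rosettes, had 134 and 187 reads in the apex and 2684 and 20895 in inflorescence replicate 1.

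GL2 and TTG2, a homeodomain and a WRKY factor of the leaf epidermis and its hairs, had 63 and 3 and 50 and 0 rosette reads, 57 and 108 in the apex and between 14 and 44 in the inflorescences. GRF5, which promotes cell division in young leaves, had 60 and 1 reads, 461 in the apex and 305 and 262 in the inflorescences. AT2G24700, a B3 factor whose model carries the annotation's mark of a transposable element (TE), had 111 and 2 reads, 1713 in the apex and 1112 and 1101 in the inflorescences. The stress-induced factors RRTF1 and MYB15 had 130 and 0 and 88 and 1 rosette reads and 232 and 139 in the apex. Their inflorescence replicates lay far apart, with 0 and 48 reads for RRTF1 and 13 and 57 for MYB15. Of the partners of these factors, GL3 (199 and 83 reads), EGL3 (206 and 62) and TTG1 (469 and 566) were read in both rosettes, whereas MYB23 had 28 and 1 reads and GL1 7 and 0.

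Lists of senescence, sulfate starvation and low oxygen each held 1 or 2 members. ASN1, an asparagine synthetase that rises in the dark, had 90 and 0 rosette reads, 37 in the apex and 4178 and 3744 in the inflorescences (log2 change 5.57, SE 0.20, adjusted p = 0.000148). The dehydrogenase SAG13 had 146 and 1 reads, 8 in the apex and 143 and 119 in the inflorescences. ASN1 and SAG13 are 2 of 9 genes in the list of senescence and sugar starvation, and 8 of the 9 had a higher CPM in rosette replicate 1. The others were ORE1 (41 and 10 reads), SEN1 (65 and 17), DIN2 (5 and 1), NAP (114 and 77), WRKY53 (97 and 63), SAG21 (1009 and 1449) and SAG12 (2 and 0). The ribonuclease RNS1 had 88 and 3 reads, 2 in the apex and 997 and 869 in the inflorescences, and RNS3 100 and 1, 170 in the apex and 2134 and 2195. BGLU28, the 1 member among 5 genes known from sulfate starvation, had 112 and 2 reads, 6 in the apex and 343 and 255 in the inflorescences. The oxygen-sensing cysteine oxidase AT5G15120 (PCO1) had 53 and 0 reads and the pyruvate decarboxylase AT4G33070 (PDC1) 108 and 3, both among 8 hypoxia genes that were all higher by CPM in rosette replicate 1. Of the other 6, LBD41 had 112 and 9 reads, SUS4 36 and 0 and ADH1 201 and 53. Over all models with 10 or more reads over both rosettes, 61.9% were higher in replicate 1. For members the rule fixed this direction. No member came from the lists of heat, cold, abscisic acid, salicylic acid, camalexin, phosphate, iron, aliphatic glucosinolate, terpene, root, seed, pollen, floral organ or photosynthesis genes. This holds for the genes in these lists only. Members outside them include the oleosin OLEO4 (117 and 3 rosette reads) and ECP63, an embryonic cell protein (122 and 0). AFP1, an ABI binding protein by its product name, is another (64 and 2). These members were named after their values were seen.

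The member with the most reads, AL3G41950, has no listed ortholog. It had 835 and 2 rosette reads, 128 in the apex and 0 and 9 in the inflorescences, and lies on scaffold 3 (13953119 to 13954178) next to GRP9, a glycine-rich protein with 100 and 1 rosette reads and 365 in the apex. AL6G35750 had 721 and 2 reads, 686 in the apex and 852 and 631 in the inflorescences. AL6G34860 had 377 and 3 reads, 10 in the apex and 1922 and 1522 in the inflorescences. AL2G28790 had 425 and 2 reads, 1070 in the apex and 6 and 2 in the inflorescences, and its neighbour MLP34 249 and 0, 996 and 18 and 14. Among all 25 members without an ortholog, 12 had their highest CPM in the apex, 9 in an inflorescence and 4 in rosette replicate 1.

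In the annotation, 102 of the 127 members (80.3%, 95% exact interval 72.3 to 86.8) had a listed ortholog, beside 85.8% of the 17033 other models with 50 or more reads in rosette replicate 1. The members were shorter, with a median span of 1807 bp and 3 exons against 2405 bp and 5 exons. Models of 1 exon made up 20.5% of members (13.8 to 28.5) and 10.9% of the other models. The TE mark was on 12 members (9.45%, 4.98 to 15.9) and on 7.03% of the others. Members lay on all 8 large scaffolds, with 26 on scaffold 6 (20.5% against 13.9%), and 3 on unanchored ones. A total of 11 members had another member as the next model, and 21 in 9 groups had one within 50 kb. Some groups held models between members that were read in both rosettes, such as the pyrophosphorylase gene UGP2 with 1883 and 2021 reads between RVE1 and GAD, a glutamate decarboxylase with 64 and 3. In another group on scaffold 4, AL4G33220 (42 and 0 reads) and AL4G33230 (9 and 0) lay between the members AL4G33200 (54 and 0) and AL4G33240 (57 and 0), beside AL4G33210 with 39 and 42.

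Across the tissues, members had lower levels than the other models, and the gap was widest in the inflorescences. The median of the members was 6.58 CPM in rosette replicate 1, 13.1 CPM in the apex and 3.92 and 4.26 CPM in the inflorescences, where the other models had 20, 28.7, 25.1 and 26.1 CPM. The apex held the highest median in both sets. The apex exceeded rosette replicate 1 in 86 members (67.7%, beside 73.0% of the other models), and the mean of the inflorescences did so in 52 (40.9%, beside 68.2%). By library, 62 members were highest in the apex (48.8%, close to the 47.7% of the other models), 42 in an inflorescence and 23 in rosette replicate 1. The median ratio of inflorescence to rosette replicate 1 was 0.517 for members and 1.34 for the others. That of apex to rosette replicate 1 was 1.80 and 1.46. Rosette replicate 1 was used by the rule. Its levels, the ratios to it and the tally of highest libraries are thus a description and were not tested. In the apex and both inflorescences together, 101 members (79.5%) had 5 or more reads against 99.3% of the others. Another 11 were read in the apex with 3 or fewer reads in both inflorescences, and 3 the other way round.

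**Figure D3:**
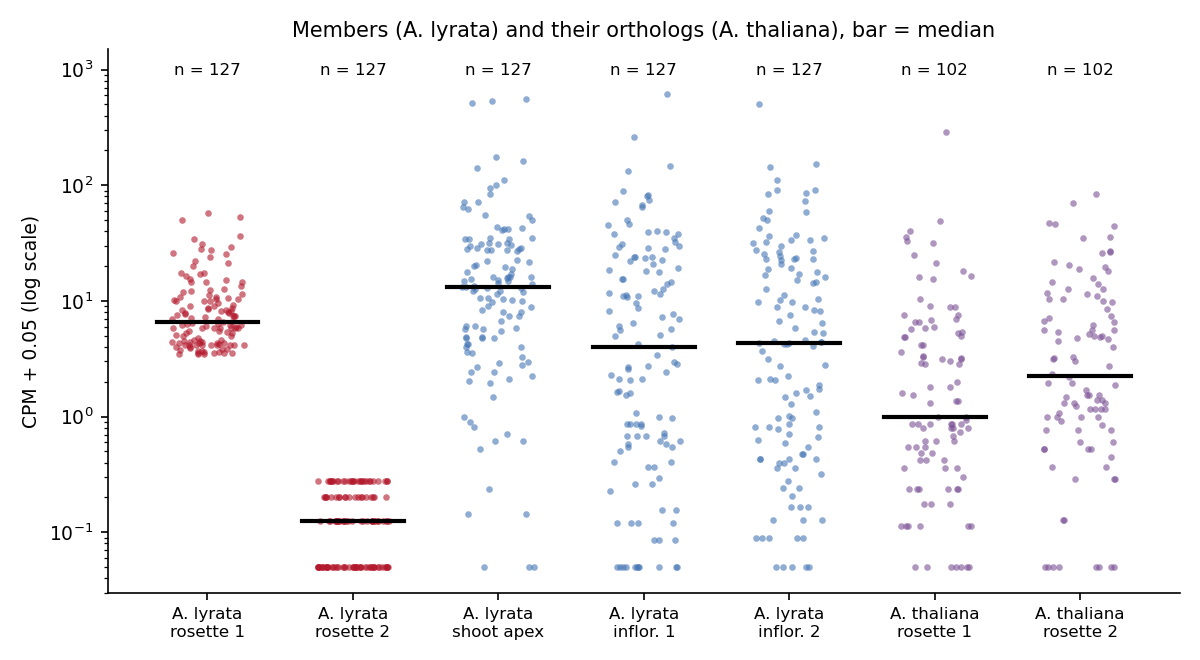
CPM plus 0.05 (log scale) of the 127 members in the 5 *A. lyrata* libraries and of the 102 *A. thaliana* orthologs in 2 rosette libraries, 1 point per gene, with the median as a bar. The medians are 6.58 CPM in rosette 1, 13.1 CPM in the shoot apex and 3.92 and 4.26 CPM in the inflorescences, and rosette 2 lies near 0 by the choice of members.

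The comparison of shoot apex and inflorescence uses no library of the rule, and it asked in which of these tissues the members are higher. Of 26057 models tested by edgeR's quasi-likelihood test, 27.4% were called higher and 20.2% lower in the inflorescences at an adjusted p under 0.05. Of 124 members tested, 34 were called higher (27.4%) and 63 lower (50.8%), 27 were not called, and 3 (DIR5, Prx37 and BGLU22) had too few reads to be tested. The other models with 50 or more reads in rosette replicate 1 had 23.0% higher and 25.1% lower calls. The median log2 change, inflorescence over apex, was -1.08 in members, 0.10 over all models tested and -0.03 over those other models.

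The apex is 1 library that the test assumes to vary like the pair of inflorescences. The study lists longer reads for the apex than for the inflorescences. Tissue, age of the plant, read length and library preparation cannot be told apart. When the spread also came from the rosettes, which the rule set apart for these genes, members called were 0 higher and 2 lower (AT4G35810 and AL1G64280), and with either inflorescence left out of that fit none was called, as given with the unadjusted counts in the closing section. The loss of calls was not limited to members. In the fit of all 5 *A. lyrata* libraries, 2225 models were called higher and 1015 lower, in place of 7130 and 5259. Under library totals the median over all models was -0.10 in place of 0.10, and 31 members were higher and 66 lower.

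Members with large log2 changes toward the apex, beyond those described above, include AT4G35810, AL1G64280 and AL173U10030. AT4G35810, a 2-oxoglutarate oxygenase, had 1494 reads in the apex and 2 and 0 in the inflorescences, with 63 and 0 in the rosettes. AL1G64280 had 893 reads in the apex and 2 and 3 in the inflorescences, and AL173U10030 761 in the apex and 10 and 8 (log2 change -7.55, SE 0.17, adjusted p = 0.000148). PYK10, MLP34, AL2G28790, AT2G38390 and AT2G25150 had changes from -9.18 to -6.77. AL3G45010 and AL3G17150, both without an ortholog and the second with the TE mark, had 111 and 103 reads in the apex and none in the inflorescences. Their apex levels were 83.1-fold and 77.1-fold above the floor of the inflorescences. GASA5, a small peptide of the gibberellin-regulated family, had 570 reads in the apex and 26 and 10 in the inflorescences. All of these were called lower in the inflorescences.

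Toward the inflorescences, FLP1, a flowering-promoting factor-like protein, had 0 reads in the apex and 111 and 111 in the inflorescences, 16.5-fold above the apex floor. CAX7, a cation exchanger, had 5 reads in the apex and 1124 and 948 in the inflorescences (log2 change 6.51, SE 0.28, adjusted p = 0.000179). RNS1 had the largest log2 change toward the inflorescences among members with a read in the apex, 7.65 (SE 0.30, adjusted p = 0.000158). AT1G12570, of the GMC oxidoreductase family, had 44 reads in the apex and 7384 and 4005 in the inflorescences. ELIP2, an early light-inducible protein, had 20 and then 878 and 872 reads, HIPP25, a metal-binding protein, 29 and then 1065 and 833, and the pectin lyase-like AT5G55720 23 and then 1068 and 972. All 7 were called higher in the inflorescences.

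**Figure D4:**
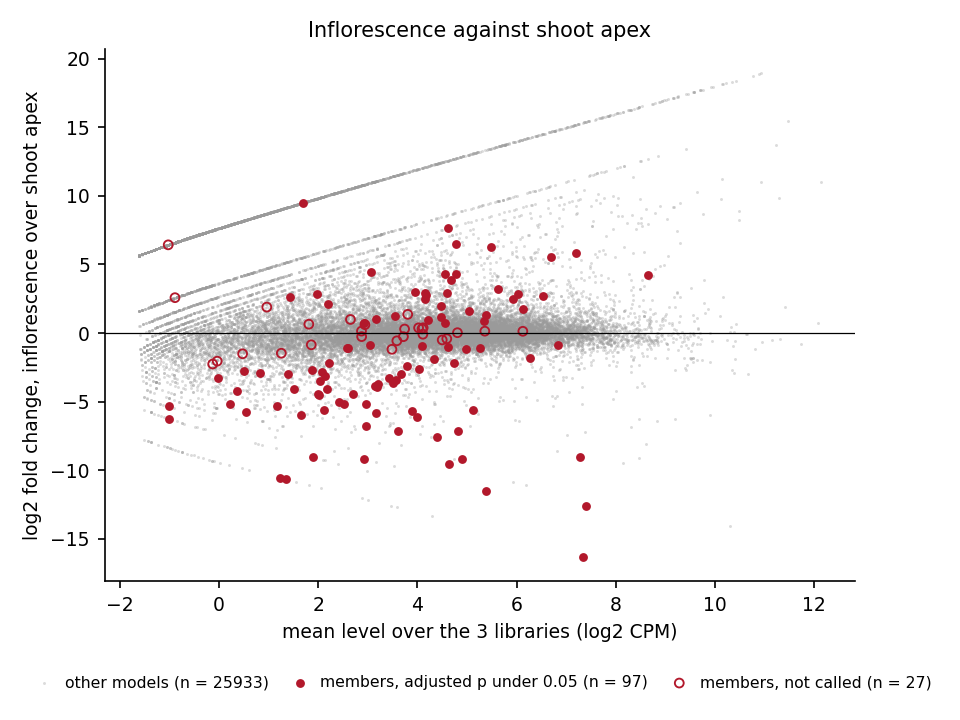
Log2 fold change, inflorescence over shoot apex (vertical), against the mean level over the 3 libraries in log2 CPM (horizontal), 1 point per model tested. Filled red points are the 97 members called at an adjusted p under 0.05 and open ones the 27 not called, with 63 of the called ones below 0. Changes of models with no read in a tissue lie on the outer lines and depend on the small count that edgeR adds.

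In the *A. thaliana* rosettes, the orthologs of the members were lower than those of other genes and differed more between the replicates. Of 102 orthologs, 79 (77.5%) had 5 or more reads in replicate 1 and 87 (85.3%) in replicate 2, against 97.4% and 97.7% for the orthologs of the 17033 other models. Their median counts were 15 and 28 reads, beside 298 and 282. Of 88 with 10 or more reads over both libraries, 7 were over 4-fold higher in replicate 1 and 27 in replicate 2, which is 38.6% against 2.76%. The orthologs also had fewer reads, and the part of that in their spread was not tested. Replicate 1 was the higher one in 36.4% of these orthologs and in 37.4% of the others, so the direction was alike and the size differed.

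**Figure D5:**
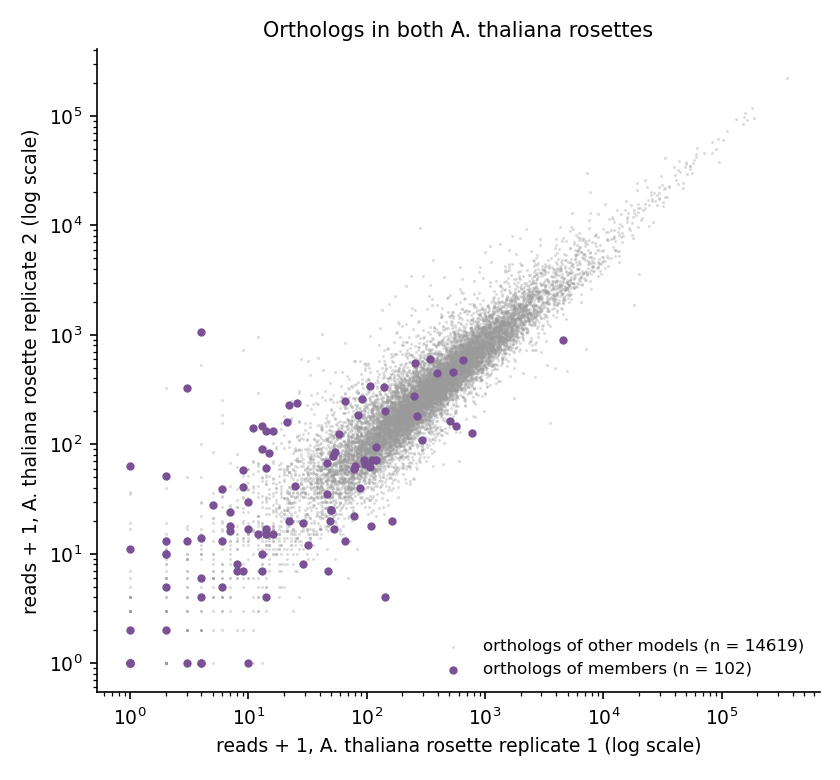
Reads plus 1 in *A. thaliana* rosette replicate 1 (horizontal, log scale) against replicate 2 (vertical, log scale), for the orthologs of the members (purple, n = 102) and of the other models with 50 or more reads in *A. lyrata* rosette replicate 1 (grey). The purple points reach from 0 reads to 4600 and lie more widely around the diagonal than the grey ones.

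The ortholog with the most reads over both *A. thaliana* libraries was ASN1, with 4600 in replicate 1 and 897 in replicate 2. It was followed by AT5G23820, a lipid recognition protein with 644 and 588 reads, RNS1 with 3 and 1065, AT3G08840 with 530 and 452, PYK10 with 339 and 603, AT4G22505 with 777 and 126, PBP1 with 394 and 447, PIL1 with 256 and 558, AT1G62500 with 567 and 147 and AT4G22490 with 502 and 161. The ER body gene NAI2 had 263 and 179 reads, so it was read in both *A. thaliana* rosettes while *A. lyrata* rosette replicate 2 had none. DFR had 164 and 19 reads and LDOX 77 and 21, higher in replicate 1. TED6 had 15 and 131, TED7 1 and 50 and LAC11 20 and 159, higher in replicate 2.

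Under the same thresholds, RNS1, ILL5 (2 and 329 reads), AT3G09450 (0 and 63) and TED7 were high in *A. thaliana* replicate 2 alone, and FTM1, an acyl carrier protein desaturase, was high in replicate 1 alone (143 and 3). ILL5 belongs to the family of enzymes that release auxin from its conjugates. At the other end, 10 orthologs (9.80%, against 2.03% of the others) had 3 or fewer reads in both *A. thaliana* libraries. These were DIR5, BGLU22, CYP81F4, CYP82F1, ECP63, AT4G22460, AT4G12500, AT4G08780, AT1G19210 and AT5G21960. CYP81F4, an enzyme of indole glucosinolate modification, had 118 and 0 reads in the *A. lyrata* rosettes and 330 in the apex.

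The *A. thaliana* libraries also differed elsewhere. Floral organ identity genes had 47 reads in replicate 1 and 246 in replicate 2, jasmonate and ethylene genes summed to 638 and 3349 CPM, and CCA1 had 384 and 1133 reads. TOC1 had 455 and 282. The part of these differences in the levels of the orthologs was not tested, and reads of the species were counted on different sets of gene models, so no level was tested between species.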

How the data were processed

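The authors deposited counts of reads per gene model for 5 *A. lyrata* and per TAIR10 gene for 2 *A. thaliana* libraries, made from strand-unspecific single-end reads. The submitters' processing notes name FastQC and TopHat but no version of either, and the counting tool is not given in the sources used here. The 7 scaled columns of both tables were not used. Reads counted per library numbered 14440792 and 13340336 (*A. lyrata* rosettes), 10556736 (apex), 28347972 and 26047279 (inflorescences), 15981384 and 12667832 (*A. thaliana*). CPM are counts per 1000000 of these totals.

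Orthologs came from the deposited annotation, and names from the TAIR10.1 reference, which held 31434 of 32678 *A. thaliana* genes. Shares of members in the annotation carry exact 95% intervals, and rosette ratios carry none. Where replicate 2 had no read, the fold is against a floor of 3 reads. Apex and inflorescence were compared with edgeR 4.0.16 (R 4.3.3, filterByExpr, TMM, glmQLFTest, Benjamini-Hochberg, 1 residual and 3.94 prior degrees of freedom), and DESeq2 1.42.0 was an alternative. The code was tested on simulated data. Tables used Python 3.11.15, pandas 2.3.3 and scipy 1.17.1.

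Named are the 25 members with most reads, members in gene lists, in runs of neighbours and at the thresholds, the 10 largest changes in each direction, and those highest or absent in other libraries. Single members were also named for their product. Members, lists and tests were chosen with earlier results of these data known, and 5 lists (ER bodies, early flavonoid, epidermal regulators, xylem, floral cutin), the peroxidase and lipid-transfer classes and the 12 transcription factors after the values were seen. Sequences were not used here.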

Additional observations from a re-analysis of the deposited data

How the results depend on the processing

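The number of members followed the thresholds. It was 63 with 100 or more reads in replicate 1 and 343 with 20 or more, 48 with 0 reads in replicate 2 and 243 with 10 or fewer, and 98 when replicate 2 was scaled to the total of replicate 1. Counted within 50 kb in place of next in order, 21 members had another member near. At 1 CPM in place of 5 reads, 50 orthologs were read in *A. thaliana* replicate 1, and the other counts of members or orthologs with reads stayed within 1.5-fold. In a fit of all 5 *A. lyrata* libraries, models called higher and lower in the inflorescences numbered 2225 and 1015 in place of 7130 and 5259, and members 0 and 2. At an unadjusted p under 0.05 that fit had 5 members higher and 22 lower. Leaving out each inflorescence in turn in that fit left from 0 to 0 models and from 0 to 0 members called in either direction by edgeR, with 1 or 2 members higher and 4 or 5 lower at an unadjusted p under 0.05. In these fits the spread comes from the rosettes, which the rule set apart for the members. DESeq2's Wald test called 3234 models lower, and 32 members higher and 57 lower, of which 31 and 57 were shared with edgeR. With DESeq2's size factors 34 and 63 members were called, and without a filter on low counts 31 and 61. With library totals the models called were 5765 higher and 6983 lower, in place of 7130 and 5259. The median log2 change of members was -1.28 under library totals, -1.08 under DESeq2's size factors, and from -1.20 to -0.95 with either inflorescence left out. No member was called in the opposite direction in any of these fits. Fits with few or no member calls could hardly show a reversal, and the others reuse the same apex and inflorescence libraries. No paired analysis was possible because the apex and the inflorescences share 1 replicate number and the rosettes chose the members.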

Other observations

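The 8 models of the opposite direction, with 50 or more reads in *A. lyrata* rosette replicate 2 and 3 or fewer in replicate 1, were led by FKF1, a light-sensing F-box protein of the evening clock, with 3 reads in replicate 1 and 1603 in replicate 2. COR27, a cold- and clock-regulated gene, had 2 and 896 reads, and AT1G70640, a PB1 domain protein, 3 and 287. These 3 genes had between 5 and 7 reads in the shoot apex and between 35 and 127 in the inflorescences. AT2G15880, an LRR family gene with 3 and 82 reads in the rosettes, had 13 in the apex and 12540 and 9163 in the inflorescences. AGL42, a MADS box factor, had 2 and 55 reads, and the DnaJ protein AT1G71000 0 and 53. AL4G10830 and AL3G35820, without an ortholog, had 3 and 68 and 2 and 52. These genes were named after their values were seen, and both rosettes chose them, so no test was made.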
